A study of Homo sapiens with 6 samples.

Results

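Adrenergic neuroblastoma cells are held in their sympathetic neuron-like identity by a small set of transcription factors, and they carry the enzymes with which such neurons make catecholamines. 8 genes of this programme were followed here, the transcription factors PHOX2A, HAND2, GATA2, GATA3, ISL1 and TBX2 and the enzymes TH and DBH. They were listed by name, with no threshold on their values, although earlier results of these data were known when the list was made. All 8 were found among the 60651 gene identifiers of the count files, and all 8 were among the 29086 genes with enough reads to be tested.

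The cells were SK-N-AS, a human neuroblastoma line without MYCN amplification, stably carrying a tetracycline-inducible MYCN construct under the tetracycline repressor (TR). Single clones had been kept under G418 and blasticidin selection, and how many clones stand behind the libraries is not given in the sources used here. 3 control libraries, labelled ETOH, were compared with 3 libraries from cells given tetracycline, labelled Tet and called induced here, both at 120 h, that is 5 days. Both groups carry the construct and the repressor, and no parental cells under tetracycline were analysed here, so MYCN and tetracycline itself cannot be told apart as the source of a difference. The question was what raising MYCN does to the transcripts of these cells. RNA was depleted of ribosomal RNA before sequencing, so unspliced and non-polyadenylated transcripts were counted too.

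The factors named here bind together at enhancers, their own included, and keep each other and the neuronal genes of the cell switched on. PHOX2A and HAND2 are needed for sympathetic neurons to form, GATA2, GATA3 and ISL1 act during their differentiation, and TBX2 is a T-box repressor. TH makes DOPA from tyrosine, the rate-limiting step, and DBH makes noradrenaline from dopamine inside vesicles. The other known state of neuroblastoma cells is mesenchymal and has its own factors.

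Total assigned counts ran from 64500589 to 102249336 per library. Induction was visible in its target: MYCN stood at 30.3, 35.5 and 32.4 CPM (read counts relative to the TMM-scaled library size) in control replicates 1, 2 and 3 and at 211, 221 and 199 CPM in induced replicates 1, 2 and 3, a log2 fold change of 2.68 (SE 0.08, adjusted p = 4.15e-05, edgeR quasi-likelihood test). Induced replicate 3 stood apart. On a principal component with 44.8% of the variance it scored 69.1, whereas induced replicates 1 and 2 scored 14.4 and 13.1 and no control library exceeded -25.9. Where leaving it out changed a call on the 8 genes or the number of calls in a list, both values are given.

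The sequences upstream of 3 of the genes are shown to place the measurements: ISL1 and DBH, the 2 with the lowest p-values, and HAND2, the most abundant. Each is the 250 bases before the RefSeq start (GRCh38.p14), read 5′ to 3′ on the gene's own strand, and capitals mark AGATAA, a core letter string of GATA factor sites, or its reverse complement TTATCT.
ISL1 (chr5:51383198-51383447, plus strand): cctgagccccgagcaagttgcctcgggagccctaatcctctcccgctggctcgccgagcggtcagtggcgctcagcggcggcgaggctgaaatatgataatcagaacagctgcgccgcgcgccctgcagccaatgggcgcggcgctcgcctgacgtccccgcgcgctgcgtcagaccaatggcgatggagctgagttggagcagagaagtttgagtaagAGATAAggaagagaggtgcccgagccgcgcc
DBH (chr9:133636113-133636362, plus strand): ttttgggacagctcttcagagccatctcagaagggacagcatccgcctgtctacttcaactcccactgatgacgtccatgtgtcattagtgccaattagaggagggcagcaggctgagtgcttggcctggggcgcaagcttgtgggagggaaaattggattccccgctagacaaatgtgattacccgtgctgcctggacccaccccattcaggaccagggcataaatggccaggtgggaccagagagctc
HAND2 (chr4:173530230-173530479, minus strand): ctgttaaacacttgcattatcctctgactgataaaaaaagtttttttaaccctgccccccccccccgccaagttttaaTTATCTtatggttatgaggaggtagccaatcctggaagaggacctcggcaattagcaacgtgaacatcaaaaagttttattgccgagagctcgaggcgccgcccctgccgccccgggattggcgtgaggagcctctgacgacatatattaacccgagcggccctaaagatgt
The ISL1 stretch holds AGATAA 31 bases before the start, and the HAND2 stretch holds TTATCT 172 bases before it. The stretch of DBH holds neither. The divergent transcript ISL1-DT begins inside the ISL1 stretch, with 116 bases between the starts of both genes on opposite strands.

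RefSeq promoter windows, reaching from 250 bases before to 50 bases after a start, were at hand for 6 of the 8 genes, 12 windows in all. Of these, 6 belong to GATA3 and 2 to GATA2, so the 12 are weighted toward GATA3. On either strand, AGATAA was found in 2 of the 12, those of ISL1 and HAND2, and so in 2 of the 6 genes. It was found in 10.3% of 35116 windows over all genes. The E-box CACGTG, the form that MYC family proteins bind best, was found in 1 of the 12, an alternative GATA3 start, and in 7.26% of all windows. TGACGTCA, the cAMP response element, and GGTGTGA, the core of T-box sites, were found in 0 of the 12, against 1.85% and 3.45% of all windows. No motif overlapped another in these windows, and a match is only a run of letters, not a bound site.

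Levels were compared between genes as TPM, which divides by exon length. In control cells the order was HAND2, GATA3, TBX2, ISL1, GATA2, PHOX2A, DBH and TH. HAND2 led at 199.9 ± 34.0 TPM (SD, n = 3), followed by GATA3 at 58.4 ± 6.65 and TBX2 at 24.5 ± 1.99 TPM. ISL1 stood at 13.7 ± 0.375 TPM, GATA2 at 9.85 ± 1.93 and PHOX2A at 9.28 ± 3.30, and the last pair did not differ beyond their spread. DBH stood at 4.90 ± 0.743 TPM and TH at 0.549 ± 0.205 TPM, the only one of the 8 below 1 TPM in every library. TH rested on 51 to 160 reads per library, the fewest of the 8.

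In induced cells the upper places held, with HAND2 at 216 ± 59.0 TPM, GATA3 at 63.0 ± 6.21 and TBX2 at 23.6 ± 1.57 TPM. The middle changed order. ISL1 stood above GATA2 and PHOX2A in each of the 3 control libraries, while in the induced libraries it stood below GATA2 each time, at 10.2 against 11.3, 11.6 against 13.4 and 6.59 against 10.5 TPM. GATA2, at 11.7 ± 1.49 TPM, and PHOX2A, at 11.8 ± 2.47, again lay within each other's spread. DBH stood at 2.64 ± 0.689 TPM and TH at 0.369 ± 0.0536 TPM, still the lowest.

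**Figure D1:**
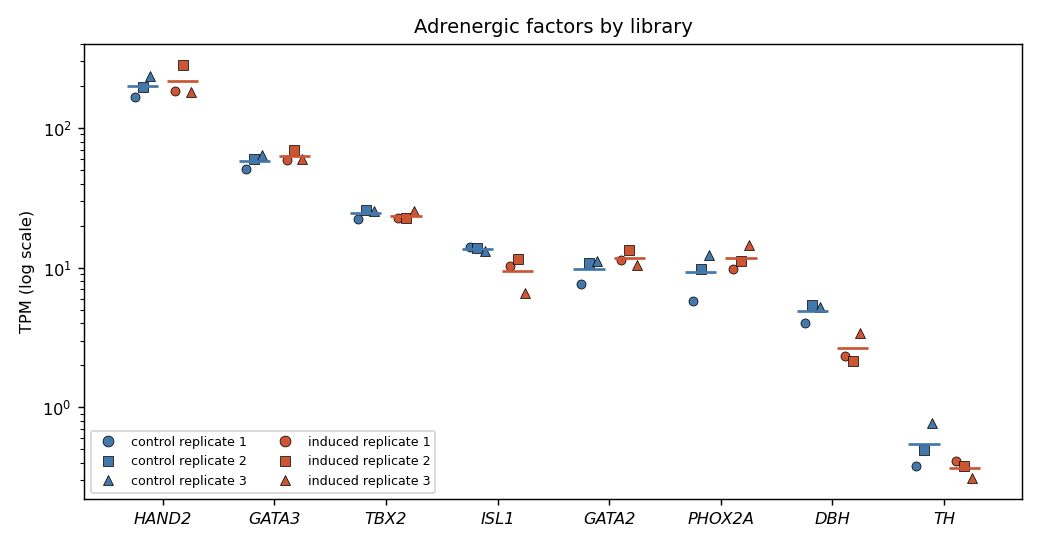
TPM (log axis) of the 8 genes in each library, with controls in blue, induced cells in red, the marker shape giving the replicate and a line at each group mean. HAND2 lies highest, with group means of 199.9 and 216 TPM, and TH under 1 TPM in both groups, and the induced points lie apart from the control points in ISL1 and DBH.

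None of the 8 genes passed the threshold of 0.05 on the adjusted p between induced and control cells by edgeR, in either direction, while 1.02% of all tested genes were called higher and 2.38% lower. The median log2 fold change of the 8 was 0.03, with 4 genes above 0 and 4 below, against -0.00038 over all genes tested. At an unadjusted p under 0.05, ISL1 and DBH were lower, 2 of 8, and 10.6% of all tested genes were lower by that rule. DESeq2 on the same counts called those 2 lower, with 4.12% of all tested genes. Without induced replicate 3, edgeR called them lower as well, with 4.44% of 28797 tested genes.

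ISL1, a LIM-homeodomain factor of sympathetic and motor neurons (chr5:51383448-51394730, plus strand), was measured at 22.7, 23.8 and 23.9 CPM in control replicates 1, 2 and 3 and at 17.1, 17.8 and 13.1 CPM in induced replicates 1, 2 and 3. Every induced library lay below every control library, which held for 14.7% of all tested genes on the CPM scale. Among the 8, ISL1 had the tightest control values. Its log2 fold change was -0.55 (SE 0.12, 95% interval -0.84 to -0.27), or 68.1% of the control level with an interval of 55.9% to 83.0%. The adjusted p was 0.0562 (unadjusted 0.00213), just short of the threshold.

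Which side of the threshold ISL1 fell on turned on the setting. The adjusted p was 0.0488 with upper-quartile scaling, 0.0346 with no count filter, 0.0468 with a correction for GC content and 0.00568 by DESeq2. It was 0.0797 with library size alone and 0.067 when at least 100 counts were required in every library. Without induced replicate 3, the lowest of the 6 libraries, the log2 fold change was -0.42 and the adjusted p 0.0177. ISL1 was thus called lower in 5 of 13 alternatives, and its log2 fold change lay between -0.64 and -0.42 in all 13, whose adjusted p ran from 0.00568 to 0.237.

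The divergent transcript ISL1-DT (chr5:51372736-51383332, minus strand), whose start lies in the stretch printed above, shares no exon base with ISL1 and is counted apart from it. It was measured at 7.72, 7.18 and 7.38 CPM in the controls and at 5.44, 5.39 and 5.14 CPM in the induced cells, without overlap. Every induced library lay below every control for 14.7% of all tested genes by CPM. The log2 fold change was -0.48 (SE 0.10, adjusted p = 0.0406), so ISL1-DT fell by this test. The call was made in 5 of 13 alternatives, whose adjusted p ran from 0.00064 to 0.192. It was lost when any 1 of the control libraries or of induced replicates 1 and 2 was left out, and kept at 0.0264 without induced replicate 3.

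DBH, dopamine beta-hydroxylase (chr9:133636363-133659329, plus strand), was measured at 6.42, 9.10 and 9.20 CPM in control replicates 1, 2 and 3 and at 3.81, 3.23 and 6.63 CPM in induced replicates 1, 2 and 3. The groups touched through 2 libraries, induced replicate 3 lying just above control replicate 1. On the TPM scale the groups did not overlap, as for 11.4% of all tested genes. The log2 fold change was -0.85 (SE 0.27, 95% interval -1.49 to -0.22), or 55.3% of the control level with an interval of 35.7% to 85.8%, and the adjusted p was 0.147 (unadjusted 0.0146).

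Induced replicate 3 weighed on DBH the other way from ISL1, being the highest of the induced libraries. Without it the log2 fold change of DBH was -1.22 with an adjusted p of 0.0156, and DESeq2 on all 6 libraries gave 0.0400. The remaining alternatives did not call DBH, and over all 13 the adjusted p ran from 0.0156 to 0.409. DBH-AS1, an antisense RNA on the minus strand sharing 118 exon bases with DBH (4.3% of its exons), was measured at 2.69, 3.50 and 3.48 CPM in the controls and at 1.94, 1.96 and 4.09 CPM in the induced cells. Its log2 fold change was -0.27 (adjusted p = 0.685), and induced replicate 3 was the highest of all 6 libraries. Without that library DBH-AS1 stood at -0.71 with an adjusted p of 0.0409.

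**Figure D2:**
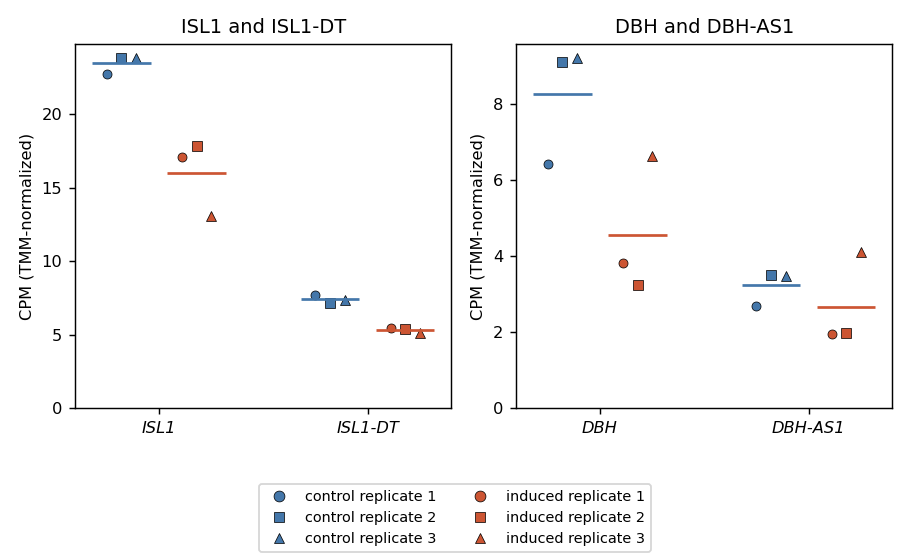
TMM-scaled CPM of ISL1 with its divergent transcript and of DBH with its antisense transcript in each library (blue control, red induced, shape for the replicate, line for the group mean, axes from 0). Induced replicate 3 is the lowest of the induced points in ISL1 and ISL1-DT and the highest in DBH and DBH-AS1.

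TH, tyrosine hydroxylase (chr11:2163929-2171815, minus strand), was measured at 0.694, 0.962 and 1.58 CPM in the controls and at 0.786, 0.662 and 0.696 CPM in the induced cells. The groups overlapped, and the distance between their means came mostly from control replicate 3. The log2 fold change was -0.60 (SE 0.30, 95% interval -1.28 to 0.09, adjusted p = 0.336), an interval that reaches from 41.1% of the control level to slightly above it. Over 12 alternatives the log2 fold change of TH ran from -0.84 to -0.21 and the adjusted p from 0.147 to 0.702. The data thus leave its direction undecided. INS-IGF2, downstream on the same strand, begins 2719 bases beyond TH and was read at 298 to 509 CPM, with no shared exon base.

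PHOX2A, a paired-like homeodomain factor that acts on the DBH and TH promoters (chr11:72239077-72245664, minus strand), was measured at 5.92, 10.7 and 14 CPM in the controls and at 10.4, 10.8 and 18.3 CPM in the induced cells. Control replicate 1 was low and induced replicate 3 high, and the other 4 libraries mixed. Its log2 fold change was 0.37 (SE 0.33, 95% interval -0.39 to 1.13, adjusted p = 0.614), the widest interval of the 6 transcription factors.

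HAND2, a basic helix-loop-helix factor (chr4:173524969-173530229, minus strand), was measured at 349, 433 and 542 CPM in the controls and at 391, 559 and 461 CPM in the induced cells. The groups overlapped throughout, with a log2 fold change of 0.09 (SE 0.18, 95% interval -0.32 to 0.50, adjusted p = 0.837). HAND2-AS1, transcribed from the opposite strand, shares 867 exon bases with HAND2, 24.1% of its exons. It was measured at 491, 511 and 534 CPM in the controls and at 386, 391 and 518 CPM in the induced cells, a log2 fold change of -0.25 (adjusted p = 0.314). Without induced replicate 3 the value of HAND2-AS1 was -0.39 with an adjusted p of 0.0128, while HAND2 itself stood at 0.11. The command in the file header carries no strand setting, so reads from the shared bases of HAND2 and HAND2-AS1, and of DBH and DBH-AS1, cannot be assigned to one strand.

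The GATA pair, zinc finger factors that can stand in for each other on many targets, overlapped between groups as well. GATA3 (chr10:8045378-8075198, plus strand) was measured at 99.9, 126 and 138 CPM in the controls and at 118, 130 and 144 CPM in the induced cells, with a log2 fold change of 0.11 (SE 0.13, 95% interval -0.19 to 0.40, adjusted p = 0.712). GATA2 (chr3:128479427-128493201, minus strand) was measured at 19.7, 29.6 and 31.8 CPM in the controls and at 30.2, 32.6 and 33.0 CPM in the induced cells. Its log2 fold change was 0.24 (SE 0.17, 95% interval -0.14 to 0.62, adjusted p = 0.499), and control replicate 1 was the single low library. Their antisense neighbours, GATA3-AS1 at a log2 fold change of 0.06 (adjusted p = 0.899) and GATA2-AS1 at 0.11 (adjusted p = 0.639), share no exon base with them.

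TBX2 (chr17:61399843-61409466, plus strand) was measured at 78.1, 96.2 and 99.3 CPM in the controls and at 82.4, 75.2 and 109 CPM in the induced cells, which enclosed the controls on both sides. The log2 fold change was -0.04 (SE 0.15, 95% interval -0.38 to 0.31, adjusted p = 0.929). Of the RNAs around it, TBX2-AS1 stood at -0.38 (adjusted p = 0.116; 0.0381 without induced replicate 3), and ENSG00000267131, which shares 28 exon bases with TBX2, at -0.14 (adjusted p = 0.71). LINC02875, a non-coding RNA 2284 bases beyond its end on the same strand, fell by this test, from 0.841 ± 0.143 CPM to 0.394 ± 0.0614 CPM (SD, n = 3), a log2 fold change of -1.08 (SE 0.21, adjusted p = 0.0386). That call was made in 7 of 12 alternatives, with adjusted p from 0.00497 to 0.189, and was lost when any 1 library other than induced replicate 3 was left out.

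The intervals bound what these data allow for the factors other than ISL1, which missed the threshold too and whose interval is given above. For GATA3 the interval covers 87.9% to 132% of the control level, for HAND2 80.2% to 142%, for TBX2 76.6% to 124%, for GATA2 90.6% to 154% and for PHOX2A 76.1% to 218%. INPPL1, a phosphatase gene on the opposite strand, shares 71 exon bases with PHOX2A (3.98% of its exons) and stood at a log2 fold change of -0.10 (adjusted p = 0.694).

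**Figure D3:**
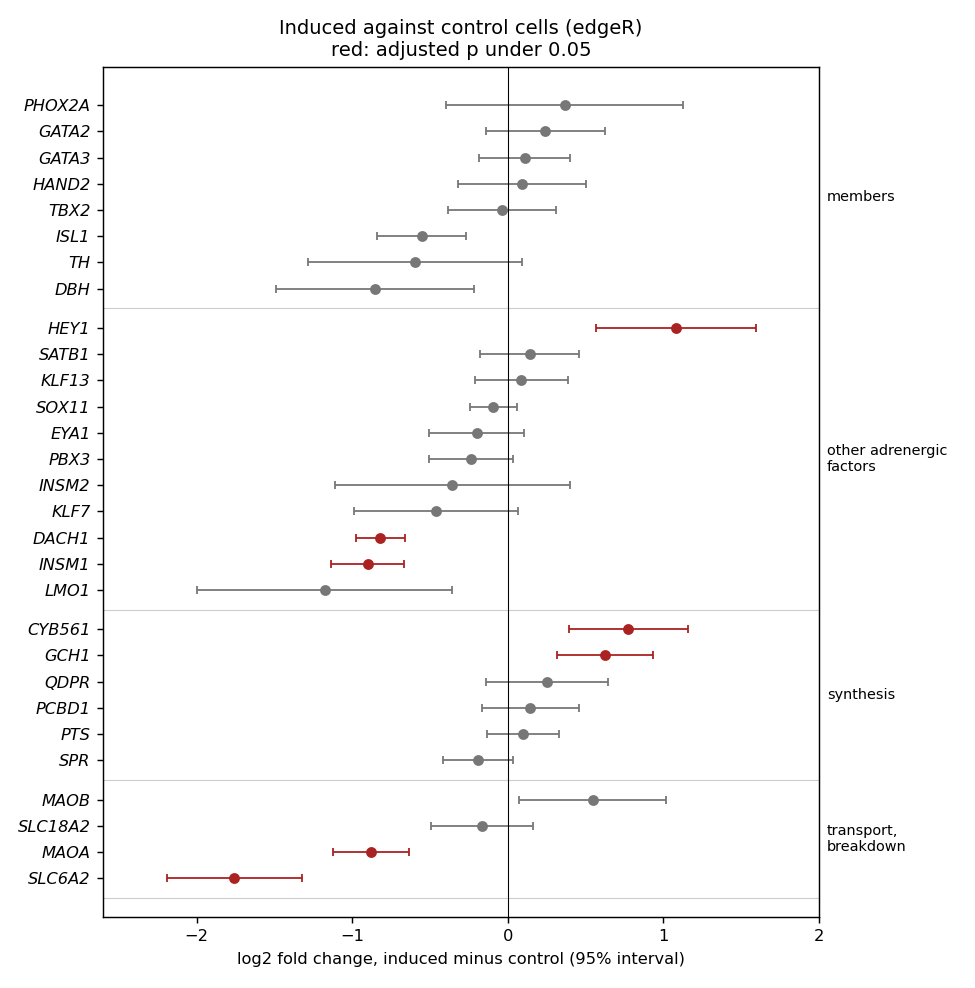
Log2 fold change of induced over control cells with its 95% interval (edgeR) for the 8 genes, for other adrenergic factors and for genes of catecholamine synthesis, transport and breakdown; red marks an adjusted p under 0.05. ISL1 and DBH lie left of 0 without passing, while DACH1, INSM1, MAOA and SLC6A2 fell and HEY1, GCH1 and CYB561 rose.

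A wider list of 15 adrenergic transcription factors had 11 members with enough reads, of which 2 fell and 1 rose. Of all tested genes 2.38% were called lower and 1.02% higher. Of the 11, 8 lay below 0 with a median log2 fold change of -0.23, against 14562 of all 29086 tested genes and a median of -0.00038. DACH1, a nuclear cofactor, fell from 37.2, 34.4 and 32.8 TPM to 21.4, 20.5 and 17.2 TPM, with a log2 fold change of -0.82 (SE 0.07, adjusted p = 0.00298). INSM1, a zinc finger repressor of neuroendocrine cells, fell from 11.6, 10.4 and 11.5 TPM to 6.77, 6.46 and 4.86 TPM, with a log2 fold change of -0.90 (SE 0.10, adjusted p = 0.00664). Both were called in 13 of 13 alternatives, and in both every induced library lay below every control library. Such separation held for 14.7% of all tested genes by CPM and 11.4% by TPM. Without induced replicate 3 the number called lower in this list was 3, with 4.44% of 28797 tested genes.

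HEY1, a Notch target that represses neuronal genes, rose from 3.40, 3.56 and 3.36 TPM to 5.6, 6.87 and 8.88 TPM, with a log2 fold change of 1.08 (SE 0.22, adjusted p = 0.0441). It was called in 7 of 13 alternatives, with adjusted p from 0.000156 to 0.185, and the call was lost without any 1 library other than induced replicate 3. SOX11, the most abundant gene of this list at 52.0 to 72.4 TPM over all libraries, stood at a log2 fold change of -0.09 (adjusted p = 0.507), and KLF7 at -0.46 (adjusted p = 0.33). SIX3 was at 0 in every library, a floor of 3 counts being worth 0.0293 to 0.0465 CPM. The list's summed level was 154 to 167 TPM in the controls and 119 to 139 TPM in the induced cells.

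None of the paralogs and protein partners of the 6 factors passed the threshold by edgeR. Of 13 listed genes 11 were tested, 1 of them higher and 1 lower at an unadjusted p under 0.05. Of all 29086 tested genes, 2365 were higher and 3080 (10.6%) lower by that rule. The 1 higher was ISL2, the paralog of ISL1, at a log2 fold change of 0.73 (adjusted p = 0.165). The 1 lower was TCF4, an E protein, at -0.24 (adjusted p = 0.0857). For TCF4 every induced library lay below every control, as for 14.7% of all tested genes. Both were named after their values were seen. The number called lower was 1 without induced replicate 3 and 1 at an adjusted p under 0.1. Over the tested genes the median log2 fold change was -0.04, and GATA5 was at 0 in every library. TBX3, the closest relative of TBX2, stood at -0.07 (adjusted p = 0.814), LDB1, the adaptor that binds ISL1, at -0.12 (adjusted p = 0.547), and TCF12, an E protein partner of HAND2, at -0.04 (adjusted p = 0.799).

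The catecholamine route was incomplete in these cells. DDC, which makes dopamine between the steps of TH and DBH, was read 2 to 10 times per library, and PNMT, which makes adrenaline, 1 to 7 times; both were named after their low counts were seen, and neither was tested. Of the genes of synthesis and its cofactors, 6 of 8 were tested, and 2 rose, while 1.02% of all tested genes were called higher. GCH1, which makes the first intermediate of the cofactor of TH, rose from 2.23, 2.14 and 2.04 TPM to 2.99, 4.34 and 2.65 TPM (log2 fold change 0.62, SE 0.13, adjusted p = 0.0499). CYB561, which passes electrons into the vesicle for DBH, rose by a log2 fold change of 0.78 (adjusted p = 0.0496) at under 0.5 TPM. Each of these calls was made in 4 alternatives and lost without any 1 library other than induced replicate 3, with adjusted p up to 0.226 for GCH1 and 0.189 for CYB561. The remaining cofactor enzymes PCBD1, QDPR, SPR and PTS stood between -0.19 and 0.25, with no call.

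Of 6 genes of transport and breakdown 4 were tested, and 2 fell, while 2.38% of all tested genes were called lower. Without induced replicate 3 the number called lower was 2 as well, and 1 was called higher. Over all 28797 genes of that fit 4.44% were called lower and 1060 genes higher. SLC6A2, the noradrenaline transporter of the cell membrane, fell from 6.88, 5.92 and 5.64 TPM to 2.17, 2.31 and 1.11 TPM, with a log2 fold change of -1.76 (SE 0.19, adjusted p = 0.00515), and was called in 13 of 13 alternatives. MAOA, the mitochondrial enzyme that degrades noradrenaline, fell from 51.2, 46.6 and 40.3 TPM to 28.3, 28.9 and 18.6 TPM, with a log2 fold change of -0.88 (SE 0.10, adjusted p = 0.00751). It was called in 12 of 13, being lost without control replicate 2 (adjusted p = 0.059). MAOB, the sister enzyme of MAOA, stood at 0.55 (adjusted p = 0.206), and SLC18A2, the vesicle transporter, at -0.16 (adjusted p = 0.598). The summed level of the list was 50.1 to 63.9 TPM in the controls and 23.4 to 38.5 TPM in the induced cells.

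**Figure D4:**
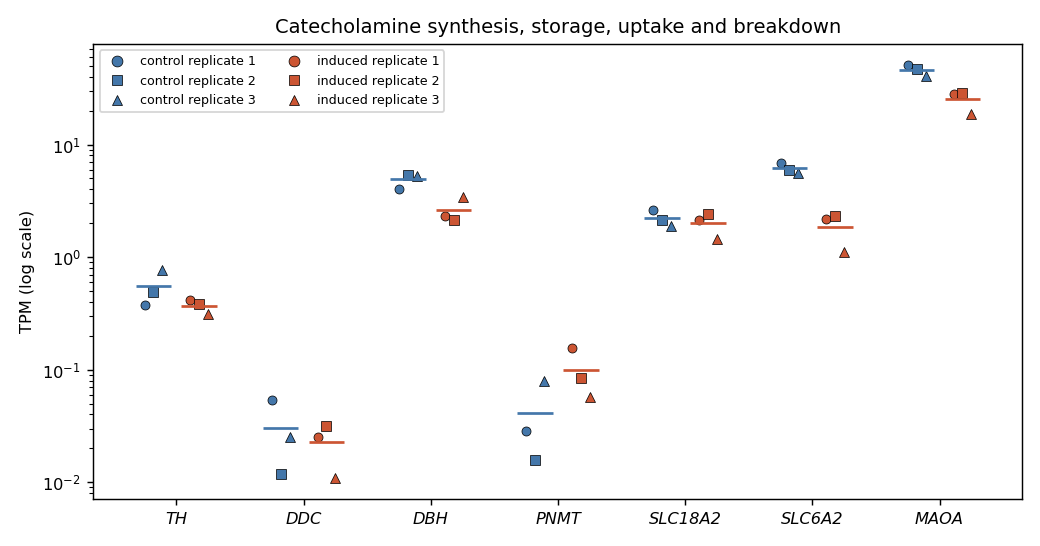
TPM (log axis) of genes along the catecholamine route, from synthesis to uptake and breakdown, in each library (blue control, red induced, shape for the replicate, line for the group mean). DDC and PNMT lie below 0.2 TPM throughout, and the induced points of SLC6A2 and MAOA lie below all control points.

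Marker lists were read beside these results to check the label of the cells. Of 12 sympathoadrenal markers 10 were tested, and CHGA and CHGB, granins of the secretory vesicle, fell, while 2.38% of all tested genes were called lower. CHGA went from 74.3, 31.8 and 50.6 TPM to 23.6, 21.2 and 21.9 TPM (log2 fold change -1.21, SE 0.26, adjusted p = 0.0492; 7 of 13 alternatives, up to 0.158), and CHGB had a log2 fold change of -2.13 (SE 0.37, adjusted p = 0.0259; 8 of 12 alternatives, up to 0.109). The CHGA call was lost without control replicate 1 or 3 or induced replicate 1 or 2, and the CHGB call without any 1 control library or induced replicate 1. The other abundant markers did not pass and lay on both sides of 0. RET, a receptor tyrosine kinase, stood at a log2 fold change of -0.65 (adjusted p = 0.104) with every induced library below every control, UCHL1, a neuronal ubiquitin hydrolase, at 0.48 (adjusted p = 0.271) with every induced library above, and SCG2 at 0.37 (adjusted p = 0.457). On the CPM scale 14.7% of all tested genes had every induced library below, and 3350 of 29086 had every induced library above. Of the 10 tested, 5 lay below 0 and 5 above. The number called lower was 3 with library size alone or DESeq2, and without induced replicate 3 it was 3, with 1 higher. The share of all tested genes called lower was 4.12% by DESeq2 and 4.44% without induced replicate 3. STMN2 and NEFM, named after their values were seen, had at most 4 reads per library. The summed level of the list was 243 to 292 TPM in the controls and 236 to 324 TPM in the induced cells.

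Of 22 mesenchymal markers 19 were tested, of which 2 rose and 1 fell, while 1.02% of all tested genes were called higher and 2.38% lower. Of the 19, 12 lay above 0 and 7 below, with a median log2 fold change of 0.20. At an unadjusted p under 0.05 by edgeR, 8 were higher and 2 lower, against 2365 and 3080 of all 29086 tested genes. Without induced replicate 3 the number called higher was 7, and without control replicate 2 it was 0. Over all tested genes these settings called 1060 and 18 higher, against 298 with all libraries. RUNX2 rose by a log2 fold change of 1.45 (adjusted p = 0.0052; lost at 0.0502 without control replicate 2) and SIX4 by 0.69 (adjusted p = 0.0462; 6 of 13 alternatives, up to 0.213), and FN1 fell by 0.71 (adjusted p = 0.033; 8 of 13 alternatives, up to 0.168). The SIX4 and FN1 calls were lost without any 1 library other than induced replicate 3. CD44 and MEOX2 were at 0 in every library, whereas VIM was at 109 to 149 TPM. The list's summed level was 246 to 260 TPM in the controls and 248 to 325 TPM in the induced cells. Of 6 Schwann cell markers 3 were tested with no call, FOXD3 was at 0, and the sum was 3.62 to 3.81 TPM and 2.87 to 5.21 TPM. The 6 transcription factors among the 8 genes were therefore present, together with UCHL1, CHGA, RET and SCG2 from the sympathoadrenal list. From the mesenchymal list VIM, TWIST1 (22.1 to 55.3 TPM) and YAP1 (9.67 to 16.4 TPM) were present too. Other markers of both states were nearly absent or low. Of the adrenergic list, HAND1 had at most 5.5 reads per library, ZNF536 at most 2 and TFAP2B at most 1. Of the mesenchymal list, RUNX1 had 3 to 29 reads, MEOX1 2 to 22 reads and PRRX1 0.802 to 2.34 TPM. These low markers were named after their values were seen. The part of these lists in the values of the 8 genes was not tested.

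The 8 genes shared a pattern among the controls on the CPM scale. Each was lowest in control replicate 1 and highest in control replicate 3, an order that 22.1% of all tested genes (6420) had. The log2 distance between these 2 libraries was 1.24 for PHOX2A, 1.15 for TH, 0.69 for GATA2, 0.63 for HAND2, 0.52 for DBH, 0.47 for GATA3, 0.35 for TBX2 and 0.07 for ISL1.

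Base composition went with that distance at the extremes, PHOX2A and TH being highest and ISL1 lowest in both. Between them the order differed, since TBX2, at 0.35, lay below HAND2 and GATA3 despite its higher GC content. The longest transcripts of PHOX2A and TH are 66.5% and 66.1% GC, above 98.3% and 98.0% of tested genes, those of DBH, TBX2 and GATA2 lie at 61.5%, 61.4% and 60.4%, and those of HAND2 and GATA3 at 58.5% and 53.7%. ISL1 alone, at 45.4%, lies below the median of all tested genes, 47.1%. Over 29002 genes with a GC value, which are not independent replicates, Spearman's rho between GC content and the log2 difference of control replicates 3 and 1 was 0.401. Between induced replicates 3 and 1 rho was 0.203. With GC content corrected for in the fit, ISL1 stood at a log2 fold change of -0.53 (adjusted p = 0.0468) and DBH at -0.87 (adjusted p = 0.0675). The part of base composition in the spread of the other members was not tested beyond this.

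**Figure D5:**
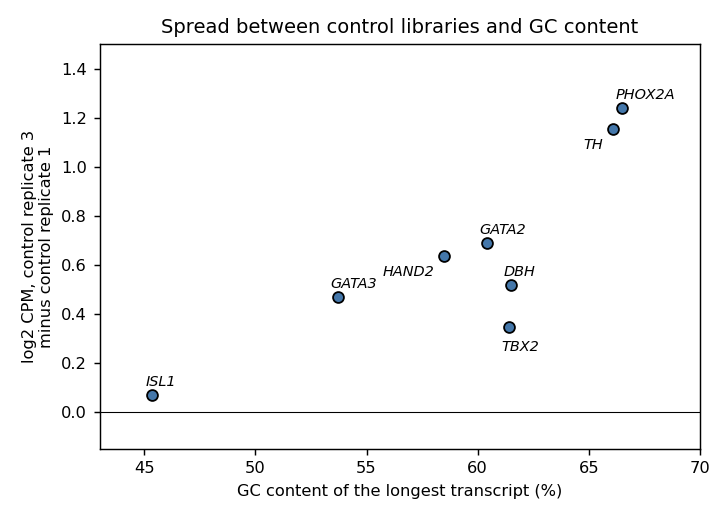
Difference in log2 CPM between control replicates 3 and 1 against the GC content (%) of the longest transcript, 1 point for each of the 8 genes. PHOX2A and TH lie highest at 1.24 and 1.15 and at the right, and ISL1 lowest at 0.07 and at the left.

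The genes whose log2 CPM ran most like a member over the 6 libraries were searched among 12787 protein-coding genes, as a description only, since 6 points shared by all genes give high values readily. For PHOX2A these were FLYWCH1 and KLC2 (Pearson's r of 0.9996 and 0.999), for GATA2 SKI and MRPS2 (0.998 and 0.997), for GATA3 ZNHIT1 and PGAP6 (0.998 and 0.997) and for HAND2 ZNF623 and ALDH16A1 (0.991 and 0.989). For ISL1 they were ENSG00000197991 and PCDH20 (both 0.997), for DBH ORMDL3 and DMTN (0.996 and 0.995), for TBX2 IDH3G and SUPT5H (0.995 and 0.994) and for TH ATAT1 and ENSG00000268655 (0.991 and 0.976). No member appeared among the nearest pair of another.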

How the data were processed

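Total RNA of 6 SK-N-AS libraries (3 control, 3 induced; ribosomal RNA depleted, stranded kit, paired ends) was sequenced by the authors. Per the submitters' processing notes, reads were aligned with STAR 2.7.1a to GRCh38 and counted with featureCounts 1.5.1; the file headers name featureCounts 1.6.4, fractional assignment of reads that overlap several genes and no strand setting, although the study's methods name one. The deposited values are therefore estimated counts per gene: 31.9% to 33.4% of values above 0 were not whole. They were rounded for testing. 99.65% of identifiers were named through GENCODE 44; ISL1-AS1 was not matched.

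Genes reaching 10 counts in 3 or more libraries entered the edgeR 4.0.16 quasi-likelihood test (R 4.3.3, TMM, no covariates), with Benjamini-Hochberg adjustment over all 29086 genes and a threshold of 0.05; p-values adjusted over a list alone are not given. DESeq2 1.42.0 was an alternative, as were other scalings, filters and thresholds, a replicate block and leaving out each library; the GC correction was chosen after seeing the data. The biological coefficient of variation was 0.153. TPM was computed from the counts and exon lengths; likeness used log2 CPM with a prior count of 2. The test was checked on simulated data.

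The 8 members and all lists were chosen with earlier results of these data known. Beyond the members and MYCN, the text names overlapping and neighbouring transcripts and, per list, genes past the threshold, up to 4 of the highest TPM and those at 0 throughout. DDC, PNMT, STMN2, NEFM, ISL2, TCF4, HAND1, ZNF536, TFAP2B, RUNX1, MEOX1 and PRRX1 were added after their values were seen. Some listed genes are not reported here and were left out of the list counts. The labels do not say whether replicates are separate cultures; the study describes this comparison as 3 biologically independent experiments. Pairs of replicates differed beyond counting noise, with a chi-square of 12.1 to 145.6 per gene. The 92 spike-in entries were at 0 and left out.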

Additional observations from a re-analysis of the deposited data

How the results depend on the processing

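Of the 8 genes, 0 were called lower by edgeR, and 1 was with upper-quartile scaling, 2 with DESeq2, 1 with no count filter, 1 with the GC correction and 1 at an adjusted p under 0.1. Leaving out 1 library gave 0 to 2, the 2 coming without induced replicate 3. None was called higher under any of these. On the TPM scale 2 of the 8 had all induced values below all control values, and on the CPM scale 1. Over all tested genes the count called higher went from 298 to 904 with DESeq2, 470 with no count filter and 574 with the GC correction, and the count called lower from 692 to 1199 with DESeq2 and 404 with at least 100 counts in every library; leaving out 1 library gave 18 to 1060 higher and 72 to 1279 lower. Whether the replicate numbers pair the libraries could not be settled, since so few correlations cannot decide it. Deviations of same-numbered libraries correlated at 0.216, -0.0188 and 0.0739, and those of differently numbered libraries at -0.193 to 0.0815. Not every library correlated best with its own number. With the block, the edgeR adjusted p was 0.244 for PHOX2A, 0.0669 for DBH and 0.0612 for ISL1, against 0.614, 0.147 and 0.0562 without it. With the replicate number as a block, 0 of the 8 genes were called, with 265 genes higher and 575 lower over all, 3 sympathoadrenal markers lower in place of 2 and 1 of the paralogs and partners higher in place of 0. Of 240 counts over the gene lists under these alternatives 180 lay within 1.5 times the reported count and 60 did not. Many of the 180 were reported counts of 0 that stayed at 0, as in both directions of the Schwann list. The 180 therefore say little about how stable the calls were. In place of 2 mesenchymal markers, 4 were called higher with no count filter, 5 with DESeq2, 4 with the GC correction, 5 at an adjusted p under 0.1, 1 with library size alone, with at least 100 counts in every library or at an adjusted p under 0.01, and 0 to 7 with 1 library left out. TH had no value when at least 100 counts were required in every library. The cause of these shifts was not tested. TH had the fewest reads of the 8, 51 to 160 per library, and PHOX2A the largest standard error (0.33, against 0.30 for TH).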
